A study of Danio rerio with 12 samples.

Results

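Hearts of Tg(myl7:ATF3) zebrafish (Danio rerio) were compared with hearts of wild-type siblings at 4 months post-fertilization (mpf), with 3 libraries of each genotype. These are 6 of the 12 libraries of a study that also holds 3 Tg(myl7:ATF3) and 3 wild-type libraries of 12 mpf. The table lists 32520 genes, and the 400 that hold values were compared here, with the genes split into the 130 above 0 in all 6 libraries and the 270 listed at 0 in at least 1 of them. The genes atf3 and myl7 were not analysed here, so the transgene could not be used to check the labels. The wild-type fish carry no stated transgene, and the labels give neither sex nor the number of hearts behind a library. The study's question at this age was the early effect of extra ATF3 in the heart.

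ATF3 is a transcription factor of the bZIP class that is normally scarce and is induced by cell stress. It pairs with other bZIP proteins and can repress or activate its targets, and the heart induces it under pressure and injury. The myl7 promoter is active in heart muscle cells, so the transgene models ATF3 excess in those cells and not in the vessels, blood or connective tissue of the heart. In whole tissue, fewer cells of a type and less RNA per cell cannot be told apart.

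The libraries were made with QuantSeq, a kit that primes on poly(A) and reads a short stretch near the 3′ end of each transcript. Values are FPKM, in which the fragments of a transcript are divided by its length in kilobases and by a factor for the library. Reads recovered from them summed to 786114, 770262 and 589598 in the Tg libraries and to 1072432, 1092280 and 630445 in the wild-type libraries. These sums cover the 400 genes and are not the depth of the libraries. Cytosolic rRNA genes took 87.9% ± 2.78 of these reads in Tg hearts and 87.7% ± 4.31 in wild-type hearts (SD, n = 3 each). Outside rRNA and mitochondrial genes 39670 ± 7854 reads remained in Tg hearts and 39150 ± 4153 in wild-type hearts (SD, n = 3 each).

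Heart muscle could not be checked by its own markers, since 0 of the 45 listed cardiac muscle and sarcomere markers hold values. Most of the 400 genes lie across from another gene. The 3′ end of a gene on the opposite strand lay inside 234 of them, outside but within 5000 bases of 116, and at neither place for 50. That opposite gene, called the partner here, was protein-coding for 211 of the 234 and for 102 of the 116. The share of such genes among all genes listed was not computed here, so these counts are not shown to be particular to the 400. Whether the authors counted with regard to strand was not given in the sources used here. For that reason the reads of a listed gene and its partner cannot be told apart. A gene symbol below is the label of the listed gene, and its function is background on that gene.

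No gene passed the test between genotypes. With limma on log2(FPKM + 1), 0 of the 400 genes (0.0%) had an adjusted p under 0.05, and the smallest adjusted p was 0.169. At an unadjusted p under 0.05 the same limma fit had 28 genes (7.0%), 15 higher (3.75%) and 13 lower (3.25%) in Tg hearts. The limma fit of all 12 libraries with equal weights called 13 genes (3.25%), 11 higher and 2 lower. That fit takes the spread of a gene from both ages, and replicates of 12 mpf varied less. It can thus understate the error at 4 mpf, and with 1 weight per age the fit of all 12 libraries called 0 genes. The limma voom fit of the recovered reads called 6 (1.5%), 3 higher and 3 lower. All differences below are therefore descriptions of these 6 libraries, also where a call by the equal-weight fit or by limma voom is named.

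Replicates of 4 mpf varied more than those of 12 mpf. Over the 114 genes outside rRNA and the mitochondrial genome that were above 0 in all 12 libraries, the median SD of a gene was 0.63 on the log2 scale among Tg hearts and 0.80 among wild-type hearts of 4 mpf. At 12 mpf it was 0.34 among Tg hearts and 0.40 among wild-type hearts. Spearman correlations between replicates of 4 mpf, across the 400 genes, ran from 0.531 to 0.629 in Tg hearts and from 0.477 to 0.604 in wild-type hearts. Genes are not independent replicates, and the large range of levels enters these coefficients.

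Values of 0 were common and uneven. The Tg libraries listed 64, 81 and 98 of the 400 genes at 0, against 193, 134 and 46 in the wild-type libraries. The wild-type libraries hold both the highest and the lowest count, so the genotypes overlap. The means were 81.0 ± 17.0 genes in Tg and 124.3 ± 74.0 in wild-type hearts (SD, n = 3 each, exact permutation test, two-sided, p = 0.4, adjusted p = 1.0 over 7 measures). With 3 libraries against 3 the smallest p this test allows is 0.1. More libraries were at 0 in wild-type than in Tg hearts for 149 genes, more in Tg than in wild-type hearts for 59, and equally many for 62.

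**Figure D1:**
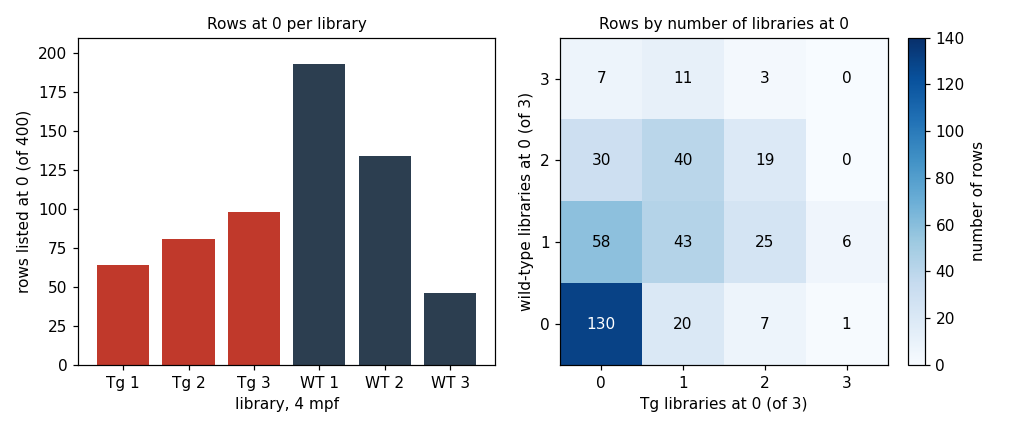
Left, bars give the number of the 400 genes listed at 0 in each library of 4 mpf, with the 3 Tg(myl7:ATF3) libraries first. Right, each cell counts genes by how many Tg and how many wild-type libraries are at 0; 130 genes are at 0 in none, and wild-type replicate 1 has the most genes at 0 (193) and wild-type replicate 3 the fewest (46).

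Most values of 0 stood beside replicates with many reads. From the other 2 libraries of the same genotype, the genes at 0 in a Tg library would have had a median of 20.9 reads there, and 178 of the 243 values (73.3%) at least 10 reads. In the wild-type libraries the median was 24.1 reads, and 260 of 373 values (69.7%) had at least 10. At the median recovered length of 2885 bases, 3 reads correspond to 1.68 to 2.28 FPKM in the Tg and 1.82 to 2.21 FPKM in the wild-type libraries. A 0 was thus mostly farther below its replicates than this floor, and no log2 difference is given below for a gene at 0 in all libraries of a genotype. The split on zeros also cuts through similar levels. The gene sall4 stayed among the 130 with a lowest value of 0.422 FPKM, while rccd1, 1 of 78 genes with a single 0, had at least 89.2 FPKM in its other 5 libraries.

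By direction, the 130 genes above 0 in all 6 libraries were evenly divided. In Tg hearts 65 were higher and 65 lower, with a median log2 difference of -0.01 and a range from -2.62 to 2.70. Of the 270 genes with zeros, 161 were higher and 109 lower (59.6% higher), with a median of 0.59. That median depends on the number added before the logarithm, with 1.42 for 0.1 and 0.18 for 5. Without wild-type replicate 1, the library with the most genes at 0, it was 0.10, and without wild-type replicate 3 it was 1.08. Over all 400 genes 226 were higher and 174 lower, with a median of 0.25. The surplus of higher genes on this scale thus stood among the genes with zeros, and their median moved when wild-type replicate 1 or 3 was left out. Its cause was not tested. By the group means of FPKM there was no surplus. On that scale 130 of the 270 genes with zeros were higher and 140 lower (48.1% higher), and over all 400 genes 193 were higher and 207 lower (48.2% higher). The sign differed between the scales for 43 genes, 37 of them with zeros. In the counts below a gene is called higher or lower by its mean log2(FPKM + 1) unless means of FPKM are named.

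Groups that do not overlap, with all 3 Tg libraries on the same side of all 3 wild-type libraries, were found for 48 of the 400 genes (12.0%). The Tg libraries were above for 29 genes (7.25%) and below for 19 (4.75%). Among the 130 genes above 0 in all 6 libraries there were 23 (17.7%), 11 above (8.46%) and 12 below (9.23%). Among the 270 with zeros there were 25 (9.26%), 18 above (6.67%) and 7 below (2.59%). At 12 mpf such groups were found for 80 genes (20.0%). These shares are the background for each gene named as apart below. With 3 libraries against 3 the smallest p an exact permutation test allows is 0.1. Separate groups can thus be common without a difference between genotypes.

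By biotype, the 333 protein-coding genes had 191 higher and 142 lower, with a median log2 difference of 0.27 and with 24 apart above and 11 apart below. By means of FPKM 161 of them were higher and 172 lower. The 42 antisense genes had 22 higher and 20 lower, with a median of 0.34. By means of FPKM the counts were 20 and 22, and the median was -0.10 without Tg replicate 3 and -0.04 without wild-type replicate 1. Their 14 members above 0 in all 6 libraries had a median of -0.44, and the 28 with zeros a median of 1.75. Of the 10 processed transcripts 4 were higher and 6 lower, with 2 apart below. Of the 6 lincRNAs 4 were higher and 2 lower, with 1 apart below. Of the 6 rRNA genes 2 were higher and 4 lower (1 and 5 by means of FPKM), and both mitochondrial rRNA genes were higher, with values of 0 in 1 or more libraries of each. The polymorphic pseudogene pla1a had a log2 difference of 0.63.

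Protein-coding genes outnumbered the other classes, so their median lay close to that of all 400. Nuclear noncoding genes held 15.9% ± 2.34 of the nuclear non-rRNA reads in Tg hearts and 18.3% ± 0.956 in wild-type hearts (SD, n = 3 each, exact permutation test, p = 0.3, adjusted p = 1.0 over 7 measures).

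By partner, the 234 genes with an opposite 3′ end inside had 144 higher and 90 lower, with a median log2 difference of 0.38. They held 34 genes with separate groups (14.5%), 22 above and 12 below. The 116 genes with an opposite end outside but within 5000 bases had 54 higher and 62 lower, a median of -0.11, and 11 with separate groups (9.48%), 5 above and 6 below. The 50 genes with no such end had 28 higher and 22 lower, a median of 0.20, and 3 with separate groups (6.0%), 2 above and 1 below. Among genes above 0 in all 6 libraries the medians were 0.16 for 89 genes, -0.51 for 31 and -0.33 for 10, in the same order. Among genes with zeros they were 0.69 for 145, 0.31 for 85 and 0.46 for 40. In each partner class the median was thus higher among genes with zeros. By means of FPKM 124 genes with an end inside were higher and 110 lower, against 47 and 69 with an end outside and 22 and 28 with none. Without single libraries the median ran from 0.10 to 0.65 with an end inside, from -0.43 to 0.26 with an end outside and from -0.08 to 0.61 with none. Genes with an opposite end inside held 75.9% ± 2.11 of the nuclear non-rRNA reads in Tg hearts and 74.5% ± 4.91 in wild-type hearts (SD, n = 3 each, exact permutation test, p = 0.8, adjusted p = 1.0 over 7 measures). As a share of summed FPKM the direction turned, with 63.0% ± 4.28 in Tg hearts and 66.8% ± 6.90 in wild-type hearts (SD, n = 3 each, exact permutation test, p = 0.4).

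**Figure D2:**
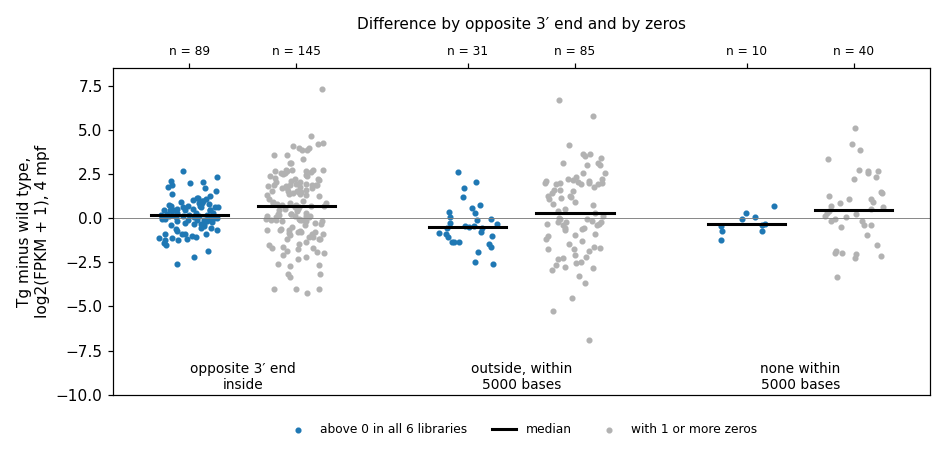
Each point is a gene's difference of mean log2(FPKM + 1), Tg minus wild type at 4 mpf, by where the opposite 3′ end lies, with genes above 0 in all 6 libraries in blue and genes with zeros in grey. Black bars are medians, which run from -0.51 to 0.16 among the blue points and from 0.31 to 0.69 among the grey ones; the height of a grey point with a genotype at 0 throughout is set by the 1 added before the logarithm.

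Among genes above 0 in all 6 libraries, the highest difference was that of trim3a, a gene of the TRIM family of ubiquitin ligases. It stood at 97.9, 67.1 and 65.1 FPKM in Tg hearts and at 26.3, 10.5 and 4.13 FPKM in wild-type hearts, from 229 to 412 reads and from 15 to 116 reads. Every Tg library lay above every wild-type library, with a log2 difference of 2.70 (SE 1.23, limma, adjusted p = 0.671). It lies on chromosome 15 from 32297441 to 32353828 (GRCz11, plus strand), across from c4, a complement component gene. The pair overlap by 1943 bases and c4 also holds values, at 0.246, 1.51 and 4.99 FPKM in Tg and 0, 6.78 and 0.285 FPKM in wild-type hearts, which overlap.

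The gene oard1 codes for an enzyme that removes ADP-ribose from proteins. It stood at 85.7, 138.9 and 200.7 FPKM in Tg hearts and at 22.6, 39.8 and 29.8 FPKM in wild-type hearts. The groups were apart, with means of 141.8 ± 57.6 and 30.8 ± 8.64 FPKM (SD, n = 3 each). The log2 difference was 2.12 (SE 0.79, limma, adjusted p = 0.478), and with the equal-weight fit of all 12 libraries the limma adjusted p was 0.0471. It lies on chromosome 23 from 19220381 to 19225709 (minus strand), and the 3′ end of apobec2b, of a deaminase family found in muscle, lies inside it.

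The claudin gene cldni, an epithelial tight junction gene and the 1 member with values of the surface epithelium and gill list, stood at 380.3, 112.0 and 357.1 FPKM in Tg hearts. In wild-type hearts it stood at 41.0, 65.7 and 81.5 FPKM. The groups were apart, with a log2 difference of 2.02 (SE 0.69, limma, adjusted p = 0.460). Its partner is coro1a, an actin regulator of white blood cells and a member of the myeloid list. The other 17 members of the epithelial list in the table were not analysed here, so the part of epithelial tissue in this value was not tested. On GRCz11 cldni spans chromosome 3 from 30921246 to 30927002 (plus strand).

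The MAP kinase kinase gene map2k1, of the ERK pathway, stood at 59.6, 103.9 and 119.4 FPKM in Tg hearts and at 30.1, 22.4 and 28.4 FPKM in wild-type hearts. The groups were apart, with a log2 difference of 1.72 (SE 0.88, limma, adjusted p = 0.671). Its partner rpl4, a protein of the large ribosomal subunit, overlaps it by 96 bases and holds values of 6.55, 5.11 and 26.1 FPKM in Tg and 0, 89.6 and 55.6 FPKM in wild-type hearts. The rpl4 values overlap between the groups and their log2 difference was -0.68, against the sign of map2k1.

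The other higher genes with separate groups in this class include pkd1l2b, a polycystin-like gene, at 39.8, 54.9 and 50.5 FPKM in Tg and 25.8, 1.34 and 26.1 FPKM in wild-type hearts. Its partner is psmd7, a subunit of the proteasome's regulatory particle. The gene bcl2l16, of the BCL2 family that controls cell death, stood at 139.4, 135.7 and 55.2 FPKM in Tg and 37.1, 29.8 and 50.6 FPKM in wild-type hearts, and its partner is the beta-tubulin gene tubb2b. The folate carrier gene slc19a1 stood at 145.8, 214.0 and 182.2 FPKM in Tg and 82.9, 106.7 and 58.8 FPKM in wild-type hearts. The scaffold gene caskin1 stood at 12.8, 14.1 and 11.3 FPKM in Tg and 5.38, 4.65 and 8.39 FPKM in wild-type hearts, across from the ubiquitin ligase gene traf7. The log2 differences were 2.04 for pkd1l2b, 1.38 for bcl2l16, 1.14 for slc19a1 and 0.97 for caskin1, with limma adjusted p-values from 0.671 to 0.883.

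The remaining 3 higher genes of this class, named here only because their values had been seen, were armc2, with a partner in the stress-induced sestrin gene sesn1 and 622.0, 665.7 and 651.4 FPKM in Tg against 257.0, 508.3 and 535.0 FPKM in wild-type hearts, iars2 and a clone-named gene across from the proteasome subunit gene psmd4a. The mitochondrial isoleucyl-tRNA synthetase gene iars2 differed by 0.80 and the clone-named gene by 0.54 on the log2 scale. All 11 higher genes of this class had an opposite 3′ end inside, as had 89 of the 130.

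**Figure D3:**
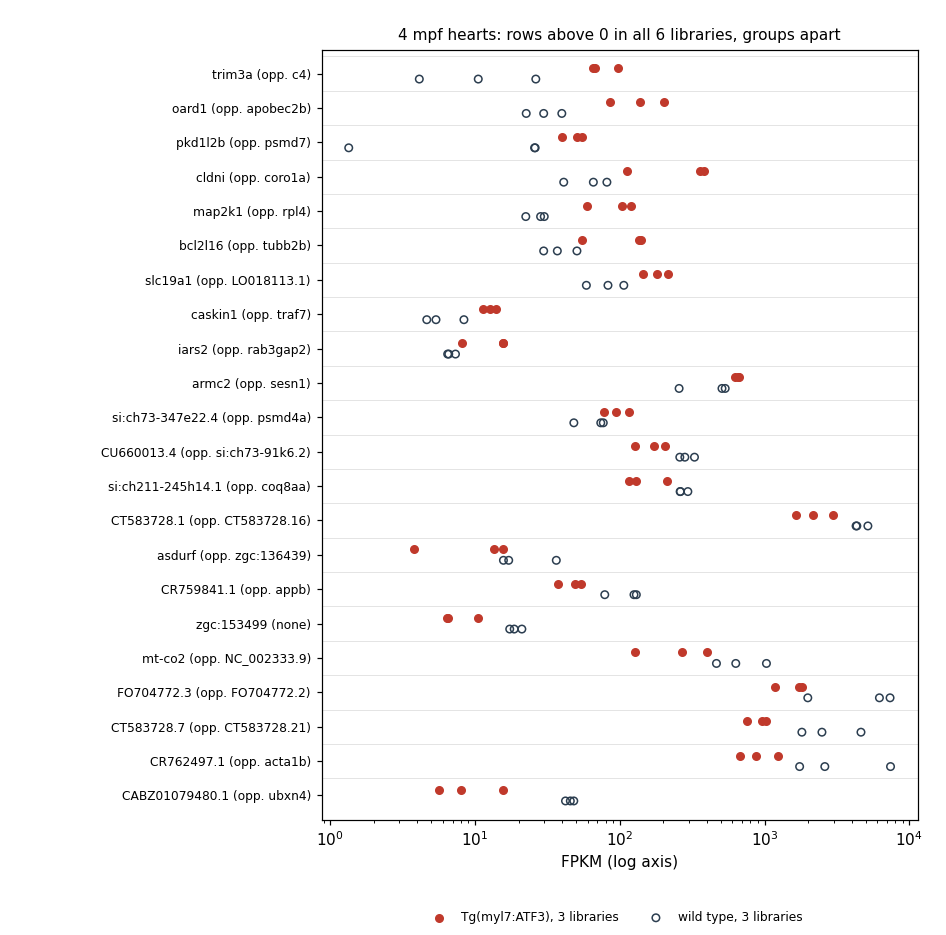
FPKM on a log axis for 22 of the 23 genes above 0 in all 6 libraries whose groups do not overlap, ordered by log2 difference with the highest on top. Filled points are the 3 Tg(myl7:ATF3) libraries and open points the 3 wild-type libraries of 4 mpf, and the opposite partner is in brackets; 11 of the genes drawn are higher and 11 lower in Tg hearts.

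Among the lower genes above 0 throughout, the noncoding processed transcript CR762497.1 is the member that touches the sarcomere. It lies on chromosome 13 from 24283670 to 24286390 (minus strand), with the 3′ end of acta1b, an alpha-actin gene of striated muscle, inside it. It stood at 866.6, 1236.4 and 681.2 FPKM in Tg hearts and at 7416.1, 1747.0 and 2608.0 FPKM in wild-type hearts, or 327, 531 and 215 reads against 2932, 669 and 850 reads. The groups were apart and wild-type replicate 1 was the highest. The log2 difference was -1.84 (SE 0.54, limma, adjusted p = 0.460), and limma voom on the recovered reads gave an adjusted p of 0.00590. At 12 mpf it stood at 5753, 6675 and 5050 FPKM in Tg and 5375, 5143 and 10075 FPKM in wild-type hearts, which overlap.

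Partners on the cardiac list were found for 4 further genes. The palmitoyltransferase gene zdhhc13, across from the muscle LIM protein gene csrp3, stood at 196.2, 401.1 and 113.4 FPKM in Tg and 208.2, 97.6 and 101.6 FPKM in wild-type hearts. The gene map7d3, near the LIM protein gene fhl1a, stood at 127.6, 200.0 and 122.7 FPKM in Tg and 96.2, 200.1 and 384.1 FPKM in wild-type hearts. The other 2 are atp6ap1a, near the troponin C gene tnnc1a, and armc5, near the muscle cytochrome oxidase subunit gene cox6a2. Both have zeros, and armc5 was listed at 0 in all 3 Tg libraries and at 0, 10.5 and 16.7 FPKM in wild-type hearts. Of the 5 genes with a cardiac partner 1 was higher and 4 lower, 1 had separate groups and 0 passed limma's adjusted threshold. The groups of the other 4 overlapped.

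Of the lower protein-coding genes, asdurf stood at 13.6, 3.81 and 15.6 FPKM in Tg and 17.1, 36.5 and 15.7 FPKM in wild-type hearts, so its groups were apart by little.

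Noncoding genes of this class were CR759841.1, antisense to the amyloid precursor gene appb, and the lincRNA CU660013.4. The antisense CR759841.1 stood at 37.6, 54.0 and 49.0 FPKM in Tg and 78.8, 130.2 and 125.4 FPKM in wild-type hearts, a log2 difference of -1.21 (SE 0.73, limma, adjusted p = 0.671). The lincRNA stood at 204.6, 127.3 and 173.1 FPKM in Tg and 281.6, 328.2 and 259.9 FPKM in wild-type hearts, a log2 difference of -0.80 (SE 0.48, limma, adjusted p = 0.671).

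Further lower genes fall outside the naming rule and were picked with their values known. CABZ01079480.1, a protein-coding gene across from ubxn4, stood at 15.71, 5.623 and 7.999 FPKM in Tg and 42.2, 45.6 and 48.2 FPKM in wild-type hearts, the lowest difference among genes with separate groups in this class (-2.21, SE 1.32, limma, adjusted p = 0.671). FO704772.3 stood at 1181, 1824 and 1744 FPKM in Tg and 7360, 6215 and 1989 FPKM in wild-type hearts, and limma voom gave an adjusted p of 0.00590 where the main limma fit gave 0.460. The genes zgc:153499 and si:ch211-245h14.1 had log2 differences of -1.21 and -0.88 and are also protein-coding.

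The genes listed for respiratory chain proteins of the mitochondrial genome were mostly lower, without a call in the main fit. Of the 12 mitochondrially encoded protein genes with values, 2 were higher and 10 lower, with a median log2 difference of -0.68 against 0.25 over all 400 genes, and 0 passed limma's adjusted threshold. With median-of-ratios scaling the same counts were 2 and 10, with a median of -0.63. Of the 12 genes, 10 were above 0 in all 6 libraries. Without that scaling their median was -0.68, against -0.01 over the 130 such genes. The mitochondrial rRNA genes went the other way, both higher and both with zeros, with a median of 1.76. Genes of the same genome are not independent of each other, so the 10 lower genes are not separate results. The cytochrome oxidase gene mt-co2 was apart, at 270.7, 398.8 and 126.9 FPKM in Tg hearts and 1030.9, 465.5 and 633.0 FPKM in wild-type hearts (log2 difference -1.49, SE 0.54, limma, adjusted p = 0.478). The NADH dehydrogenase gene mt-nd4 stood at 492.7, 248.5 and 154.0 FPKM in Tg and 992.4, 629.4 and 482.8 FPKM in wild-type hearts. Its groups overlap by the highest Tg and the lowest wild-type library.

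The NADH dehydrogenase gene mt-nd5 stood at 353.5, 303.5 and 594.8 FPKM in Tg and 1183.2, 529.9 and 839.5 FPKM in wild-type hearts. The gene mt-nd6, which lies across from mt-nd5 and alone among the 12 is on the minus strand, held most mitochondrial reads, at 143466, 159813 and 93496 FPKM in Tg and 126245, 197479 and 269985 FPKM in wild-type hearts. It took 5.20% ± 1.47 of the reads in Tg and 6.38% ± 3.64 in wild-type hearts (SD, n = 3 each, exact permutation test, p = 0.8, adjusted p = 1.0 over 7 measures). The other 11 took 1.38% ± 1.09 in Tg and 1.57% ± 0.660 in wild-type hearts (SD, n = 3 each, exact permutation test, p = 0.7, adjusted p = 1.0 over 7 measures). Neither share differed between genotypes by more than the replicate spread, and the smallest p this test allows is 0.1. The shares are fractions of all recovered reads, mostly rRNA, while FPKM divides by transcript length and a factor for the library. The shares therefore cannot decide whether the lower FPKM of single genes add up to a difference. The 2 higher members were mt-nd1 and mt-nd3, and mt-nd3 was at 0 in 1 Tg and 2 wild-type libraries.

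**Figure D4:**
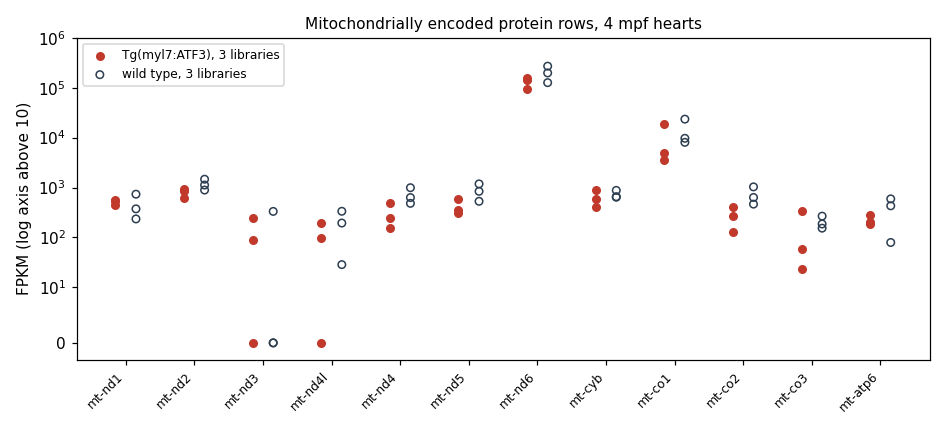
FPKM of the 12 mitochondrially encoded protein genes in the 3 Tg(myl7:ATF3) libraries (filled, left in each pair) and the 3 wild-type libraries (open) of 4 mpf, on an axis that is logarithmic above 10 and linear below. The gene mt-nd6 lies far above the others, and mt-co2 is the gene whose groups do not overlap.

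Respiratory chain genes of the nucleus were thinly covered. Values were listed for 3, ndufa3, ndufb2 and atp5f1e, and each has zeros. By means of FPKM all 3 were lower in Tg hearts, while on the log2 scale ndufa3 had a difference of 1.29. The accessory NADH dehydrogenase subunit gene ndufa3 stood at 128.6, 122.8 and 81.6 FPKM in Tg hearts and 0, 400.5 and 224.3 FPKM in wild-type hearts, so that its sign on the log2 scale turns on the 0 in wild-type replicate 1. Of 6 genes with a respiratory chain partner 2 were higher and 4 lower, with 0 apart.

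The cytosolic rRNA genes come from the CT583728 clone on chromosome 4. Of them CT583728.13, CT583728.11 and CT583728.8 share a recovered length of 1875 bases. Their sequences were not compared here, and values of single members are taken as uncertain. CT583728.7 stood at 755.6, 1019 and 957.0 FPKM in Tg and 4635, 2491 and 1811 FPKM in wild-type hearts, with separate groups (log2 difference -1.61, SE 0.43, limma, adjusted p = 0.371). CT583728.1 stood at 1644, 2146 and 2961 FPKM in Tg and 5173, 4288 and 4340 FPKM in wild-type hearts, also with separate groups (-1.07, SE 0.37, limma, adjusted p = 0.460). The most abundant members showed no such separation. CT583728.13 was at 107638, 241526 and 555546 FPKM in Tg and 650159, 151511 and 82033 FPKM in wild-type hearts, and CT583728.11 was at 571329, 318785 and 66104 FPKM in Tg and 251333, 793252 and 506750 FPKM in wild-type hearts. The protein-coding entries CT583728.25 and CT583728.14 hold identical values in every library and were counted as listed. Each was at 0, 42.0 and 19.9 FPKM in Tg and 472.3, 67.6 and 113.1 FPKM in wild-type hearts, with separate groups.

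Some genes with zeros were at 0 throughout a genotype. Of the 270, 7 were above 0 in all 3 Tg libraries and at 0 in all 3 wild-type ones, and 1 showed the reverse. In all, 21 genes were at 0 in the 3 wild-type libraries and 7 in the 3 Tg libraries. Apart from cd22 and the antisense BX072576.3, the 7 stood at under 40 FPKM in Tg hearts.

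The gene cd22, a B-cell surface receptor that dampens B-cell signalling, stood at 91.0, 70.3 and 176.9 FPKM in Tg hearts and at 0 in each wild-type library. The Tg values came from 91, 80 and 148 reads. The groups were apart, and the limma adjusted p was 0.169. The equal-weight limma fit of all 12 libraries gave an adjusted p of 0.00308 and limma voom 0.00131. It lies on chromosome 16 from 44906324 to 44917748 (plus strand), 2264 bases from the 3′ end of ncam3. At 12 mpf the cd22 groups overlapped, at 17.7, 90.3 and 68.4 FPKM in Tg and 21.9, 6.76 and 9.85 FPKM in wild-type hearts. Of the 24 lymphocyte markers in the table the other with values was rfx5, a regulator of MHC class II genes, at 0, 0 and 4.55 FPKM in Tg and 0, 0 and 5.14 FPKM in wild-type hearts. The part of B cells in the cd22 value was not tested.

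The antisense BX072576.3, on chromosome 16 from 40338584 to 40340518 (minus strand), stood at 321.2, 195.4 and 65.6 FPKM in Tg hearts and at 0 in each wild-type library. The 3′ end of rspo3, a secreted enhancer of Wnt signalling, lies inside it. The limma adjusted p was 0.169, and limma voom gave an adjusted p of 0.00727. At 12 mpf it was again higher, at 82.4, 94.9 and 334.3 FPKM in Tg and 23.3, 43.3 and 0 FPKM in wild-type hearts.

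The other 5 genes of this pattern had lower levels. The CTP synthase gene ctps1a, of pyrimidine nucleotide synthesis, stood at 19.8, 12.4 and 9.90 FPKM in Tg hearts, and nox1, a superoxide-producing NADPH oxidase gene, at 17.2, 24.4 and 10.6 FPKM. The disulfide isomerase gene txndc5, which helps fold proteins in the endoplasmic reticulum and stands on the integrated stress list, was at 11.38, 24.99 and 8.84 FPKM in Tg hearts. The gene angel1 was at 9.30, 7.06 and 37.9 FPKM and robo4, a guidance receptor gene of blood vessels, at 2.43, 1.60 and 8.71 FPKM in Tg hearts. All 5 were at 0 in every wild-type library, and limma adjusted p-values ran from 0.460 to 0.671. With the equal-weight fit of all 12 libraries ctps1a, nox1, txndc5 and angel1 passed, and with limma voom ctps1a did (adjusted p = 0.0146). At 12 mpf ctps1a was also apart, at 6.19, 6.86 and 4.57 FPKM in Tg and 1.299, 1.81 and 2.19 FPKM in wild-type hearts. The groups of nox1, txndc5, angel1 and robo4 overlapped at that age. The 3′ end of cstf2 lies 11 bases from nox1, and angel1 holds 3 opposite 3′ ends, that of spred1 among them.

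The heme synthesis gene alad showed the reverse pattern. It was listed at 0 in all 3 Tg libraries and stood at 19.9, 69.8 and 38.8 FPKM in wild-type hearts, from 28, 95 and 45 reads. The limma adjusted p was 0.371 and that of limma voom 0.0146. At 12 mpf it was lower again, at 0, 7.48 and 12.7 FPKM in Tg and 16.3, 21.0 and 13.5 FPKM in wild-type hearts.

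The other erythrocyte marker with values, hemgn, a nuclear protein of red cell precursors, went the other way. It stood at 33.8, 20.5 and 45.8 FPKM in Tg hearts and at 0, 0 and 6.09 FPKM in wild-type hearts, with a log2 difference of 4.09 (SE 1.59, limma, adjusted p = 0.494). The 2 erythrocyte members with values thus had opposite signs at 4 mpf, and the other 21 of the list, the globins among them, were not analysed here. At 12 mpf the hemgn groups overlapped, with a log2 difference of -0.21. The 3′ end of trmo lies inside hemgn, and that of tmem203 lies 1798 bases from alad. The part of red cells or of these partners in either value was not tested.

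The scaffold gene mpp6a stood at 9.25, 11.01 and 22.8 FPKM in Tg hearts and at 0.569, 0 and 0 FPKM in wild-type hearts, from 2 reads in all (limma, adjusted p = 0.478). At 12 mpf it was apart in the other direction, at 11.8, 10.7 and 14.3 FPKM in Tg and 31.2, 52.8 and 41.6 FPKM in wild-type hearts. The limma interaction between ages had an adjusted p of 0.0526. The Tg values of the 2 ages overlapped, and the wild-type values did not. The 3′ end of gsdmeb lies 1136 bases from mpp6a.

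Noncoding genes with zeros lay on both sides. BX323855.2, antisense to the rhophilin gene rhpn2, stood at 55.7, 61.2 and 76.1 FPKM in Tg and 0, 0 and 16.1 FPKM in wild-type hearts. CR848791.1, near the helicase gene dhx40, stood at 255.0, 290.8 and 240.0 FPKM in Tg and 0, 0 and 106.8 FPKM in wild-type hearts. On the lower side, the processed transcript CU695215.2 stood at 0, 0 and 10.5 FPKM in Tg and 611.4, 164.3 and 193.0 FPKM in wild-type hearts (limma, adjusted p = 0.169). Its Tg value rests on 1 read.

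Antisense BX957326.4, across from tmem82, stood at 158.4, 80.8 and 0 FPKM in Tg and 180.4, 1007 and 485.0 FPKM in wild-type hearts. Antisense BX572077.1, across from laynb, stood at 0, 0 and 28.1 FPKM in Tg and 39.8, 43.2 and 63.1 FPKM in wild-type hearts. Both were lower in Tg hearts at 12 mpf too, again with separate groups. Of the 42 antisense genes 5 were apart above and 3 apart below (19.0%), against 12.0% apart among all 400 genes. Of the 14 antisense genes above 0 in all 6 libraries, 1 was apart (7.14%), and it was lower.

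**Figure D5:**
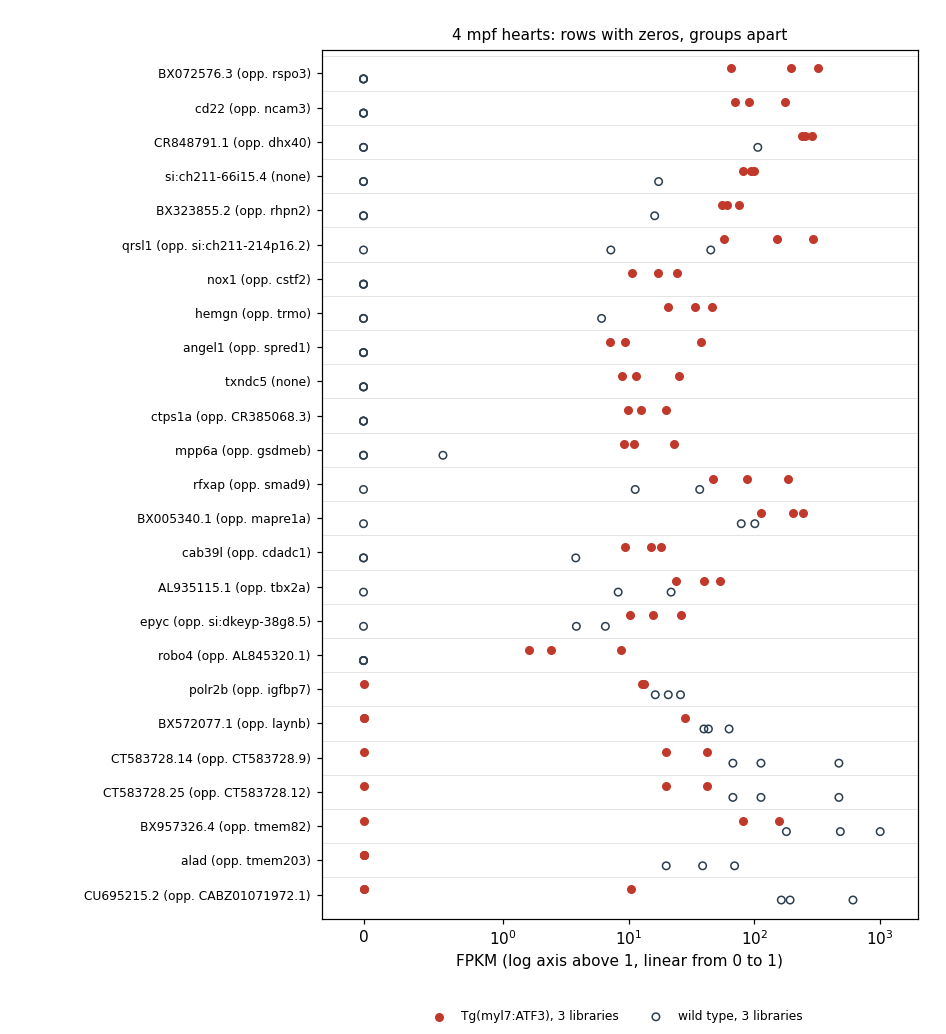
FPKM of the 25 genes with at least 1 value of 0 whose groups do not overlap, ordered by log2 difference with the highest on top; the axis is logarithmic above 1 and linear from 0 to 1. Filled points are the 3 Tg(myl7:ATF3) libraries and open points the 3 wild-type libraries, points at 0 may cover each other, and the opposite partner is in brackets; 18 genes are higher and 7 lower in Tg hearts.

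The other genes of this class were likewise picked with their values known. The gene qrsl1, of mitochondrial glutaminyl-tRNA formation, stood at 296.4, 153.1 and 57.1 FPKM in Tg and 0, 7.22 and 45.1 FPKM in wild-type hearts. The gene rfxap, another regulator of MHC class II genes, stood at 87.7, 46.9 and 187.0 FPKM in Tg and 0, 11.3 and 36.8 FPKM in wild-type hearts. On the lower side polr2b, a large subunit of RNA polymerase II, stood at 12.9, 0 and 13.2 FPKM in Tg and 16.3, 25.9 and 20.7 FPKM in wild-type hearts, across from igfbp7. The gene si:ch211-66i15.4 was at 94.8, 81.8 and 99.4 FPKM in Tg and 0, 0 and 17.3 FPKM in wild-type hearts. The rest, cab39l, epyc, AL935115.1 and BX005340.1, were higher, with log2 differences from 2.37 to 3.16.

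Both strands held values for 15 overlapping pairs of genes, 12 of them with facing 3′ ends. In 8 of the 15 both genes differed in the same direction, and 7 pairs had a member with separate groups. The gene rfxap is in more than 1 of these pairs, with smad9 and with CT573139.2. The 12.0% with separate groups among all 400 genes is a share of genes, so it is not the background for pairs. The facing pair cab39l and cdadc1 was higher on both strands. The kinase adaptor gene cab39l stood at 9.28, 18.2 and 15.01 FPKM in Tg and 0, 0 and 3.79 FPKM in wild-type hearts, and the deaminase-domain gene cdadc1 at 55.8, 67.5 and 87.0 FPKM in Tg and 0, 0 and 83.4 FPKM in wild-type hearts. In the pair of rfxap and smad9, a transducer of BMP signals, the signs were opposite. There smad9 stood at 8.12, 18.1 and 0 FPKM in Tg and 21.8, 24.4 and 17.5 FPKM in wild-type hearts, so its groups overlap by 1 Tg library. In the pair of si:ch211-245h14.1 and the coenzyme Q gene coq8aa the signs were opposite as well, with -0.88 and 1.87 on the log2 scale. In 7 of the 15 pairs the signs differed.

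Pathway lists had few members with values, and 0 passed limma's adjusted threshold in any of them. Of 33 integrated stress response genes, 2 hold values. The serine synthesis gene psph stood at 601.1, 582.9 and 364.1 FPKM in Tg and 595.2, 217.9 and 1139.0 FPKM in wild-type hearts, with a log2 difference of -0.07, and txndc5 is given above. The gene ino80, which has the stress-induced glutathione-degrading gene chac1 as partner, stood at 92.9, 46.0 and 46.9 FPKM in Tg and 93.6, 195.6 and 71.5 FPKM in wild-type hearts. The ATF3 relatives of the AP-1 and immediate early list, the cardiac stress and hypertrophy list, and the ion channel list had 0 genes with values.

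Of 80 ribosomal protein genes 4 hold values, 2 higher and 2 lower on the log2 scale and all 4 lower in Tg hearts by means of FPKM. Of the 4 genes with a ribosomal protein partner, map2k1, hwa and zgc:153284 were higher in Tg hearts on both scales, with differences of 1.72, 3.36 and 0.47 on the log2 scale. The fourth, kcnb2, averaged 15.1 FPKM in Tg and 20.1 FPKM in wild-type hearts, and its log2 difference of 0.41 turns on a 0 in wild-type replicate 2. Of these genes map2k1 had separate groups, and hwa stood at 59.3, 58.5 and 23.2 FPKM in Tg and 0, 0 and 79.9 FPKM in wild-type hearts. Of 49 cell cycle genes 3 hold values. The replication licensing inhibitor gmnn stood at 5.91, 21.4 and 29.2 FPKM in Tg and 6.35, 32.0 and 63.3 FPKM in wild-type hearts, and racgap1 and dut also overlapped.

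Both genes with a proteasome partner, pkd1l2b and the clone-named gene across from psmd4a, had separate groups with Tg above. So had 11 of the 130 genes above 0 in all 6 libraries (8.46%), the class of both. With 2 genes this is not by itself a result about the proteasome. The proteasome genes psma6b and psma1 themselves had log2 differences of 0.86 and -1.15 and overlapped. Of the interferon list stat1a, a signal transducer of interferon receptors, had a log2 difference of -0.31.

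Markers of other cell types were thinly covered. Of the 26 genes on the myeloid list nox1 and the antisense grnas hold values. Both were higher on the log2 scale, as were 226 of all 400 genes (56.5%), and the part of myeloid cells in either value was not tested. The gene grnas, antisense to the granulin genes grn1 and grn2, was at 5.26, 0 and 10.5 FPKM in Tg hearts and at 0 in the 3 wild-type libraries. The endothelium, fibroblast and skeletal muscle lists had 0 genes with values, and the liver list had itih2, at 25.3, 0 and 0 FPKM in Tg and 0, 0 and 32.6 FPKM in wild-type hearts.

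Genes with fibroblast or epicardium partners were kifc3, stambpl1 and trdmt1. The gene trdmt1, across from the intermediate filament gene vim, stood at 5.77, 41.3 and 149.9 FPKM in Tg and 55.9, 680.4 and 256.9 FPKM in wild-type hearts, with a log2 difference of -2.62 (limma, adjusted p = 0.671). Its groups overlap. The gene stambpl1, near the smooth muscle actin gene acta2, stood at 3.81, 6.69 and 10.2 FPKM in Tg and 0, 64.8 and 51.8 FPKM in wild-type hearts.

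Set beside 12 mpf, the difference at 4 mpf was not shown to be particular to that age for any gene. The libraries of the 2 ages also differed in make-up. Cytosolic rRNA genes took 82.71% to 90.39% of the reads in the 400 genes at 4 mpf and 18.01% to 41.35% at 12 mpf. The gene mt-nd6 took 3.49% to 10.47% at 4 mpf and 37.07% to 55.11% at 12 mpf. Genes at 0 numbered 46 to 193 per library at 4 mpf and 3 to 9 at 12 mpf. What this does to a comparison of FPKM between ages was not tested. The interaction had 0 genes with a limma adjusted p under 0.05 and 30 (7.5%) unadjusted, and the smallest adjusted p was 0.0526. Of the 48 genes with separate groups at 4 mpf, 36 overlapped at 12 mpf, 10 were apart in the same direction and 2 in the opposite direction, mpp6a among them. Over all 400 genes 80 (20.0%) were apart at 12 mpf, so being apart at both ages is not by itself a result about these genes. The 10 were alad, BX072576.3, si:ch211-245h14.1, armc2, bcl2l16, ctps1a, trim3a, BX572077.1, oard1 and BX957326.4. Of these trim3a was at 49.3, 78.8 and 59.2 FPKM in Tg and 18.8, 24.1 and 37.1 FPKM in wild-type hearts of 12 mpf. The gene oard1 was at 114.0, 168.6 and 155.5 FPKM in Tg and 72.8, 59.6 and 97.2 FPKM in wild-type hearts of that age.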

How the data were processed

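RNA of cardiac tissue was extracted with TRIzol and column purification, and QuantSeq 3′ FWD libraries, without rRNA depletion, were read single-end at 75 bases, per the labels' protocols. Per the submitters' processing notes, Trim Galore, STAR, RSEM and DESeq2 were used on GRCz11. Versions, annotation release and strand setting were not given in the sources used here. In the table the authors deposited FPKM values, 1 column per library, with 0 columns left over. How the 400 genes with values were chosen and how libraries were scaled is not given either. The series' design text calls the samples of a group biological replicates.

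Reads were recovered from the FPKM by solving a factor per library on 11 mitochondrial genes. All 400 genes gave whole reads within 0.0001. Recovered reads show how many reads lie behind a value, not the depth of a library, and cover counting error only, since no molecular identifiers are named. Values were tested as log2(FPKM + 1) without a filter by limma 3.58.1 (R 4.3.3, eBayes with trend and robust, two-sided) on the 6 libraries of 4 mpf, with Benjamini-Hochberg adjustment over 400 genes and a threshold of 0.05. A fold on this scale understates the change of low genes. The interaction was fitted to all 12 libraries with 1 weight per age (0.371 at 4 mpf and 2.7 at 12 mpf). Library measures were compared by exact permutation tests over 7 measures. Other steps used scipy 1.17.1, pandas 2.3.3, numpy 2.4.6 and matplotlib 3.10.9 in Python 3.11.15. The main limma fit was also run on reads simulated from the means and spread of the 4 mpf libraries. The outcome is not given here, so the simulation adds no support to the values above.

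Genes with a proper symbol were named if called by the 12-library fit, if among the 8 largest differences each way with separate groups above 0 throughout, or if at 0 in all libraries of 1 genotype and above 0 in all of the other. The rRNA and mitochondrial genes, up to 4 genes per list of 20 lists and 3 noncoding genes each way were added. Genes outside the rule are marked in the text, and 1 gene that meets it is not reported here. The genes, lists and tests were chosen with earlier results of these data known. A 3′ end is the end of the listed span on its strand. Alternatives covered pseudocounts, filters, scalings, weights, models, a replicate block and leaving out each library.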

Additional observations from a re-analysis of the deposited data

How the results depend on the processing

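The count of genes between genotypes was 0 in 15 of the 18 alternative limma fits. It was 13 in the fit to all 12 libraries with equal weights, 6 with limma voom on recovered reads and 2 without trend and robust (25 unadjusted). Leaving out each library gave 0 to 0 genes, with 20 to 41 unadjusted. No label says that the replicate numbers pair the samples. Deviations of same-numbered libraries had correlations of 0.0187, -0.0156 and -0.0123, and those of other pairs ran from -0.0935 to 0.103. Such values cannot show that no pairing exists. With a replicate block 0 genes passed (24 unadjusted) between genotypes and 0 (29 unadjusted) in the interaction. The interaction count was 1 with pseudocount 0.1, 2 with equal weights and 0 to 2 without single libraries: 1 without wild-type replicate 1 and 2 without wild-type replicate 3 of 4 mpf, and 1 without wild-type replicate 1 and 2 without wild-type replicate 2 of 12 mpf. Separate groups numbered 37 to 58 above and 27 to 61 below without single libraries, against 29 and 19 with all, since 3 libraries against 2 separate more easily. With shares of summed FPKM the share of genes with an opposite 3′ end inside differed by -3.78 percentage points (Tg minus wild type), against 1.40 from reads. The median of genes with zeros ran from 0.10 to 1.42 over its alternatives and that of protein-coding genes from 0.01 to 0.64. By means of FPKM, a scale chosen after seeing the data, 193 of 400 genes were higher in Tg hearts, against 226 by mean log2 values. For the 80 named genes, 19 of 1372 alternative values became calls (13 genes), 0 calls reversed, and 58 uncalled values changed sign. What caused them was not tested. A mean of 39670 reads in Tg and 39150 in wild-type libraries outside rRNA and mitochondrial genes, with many values at 0, limits what can be resolved.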
